A study of Mus musculus with 4 samples.

Results

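The genes described here are Igf1, its receptor gene Igf1r, and 6 genes of insulin-like growth factor (IGF) binding proteins, Igfbp2, Igfbp3, Igfbp4, Igfbp5, Igfbp6 and Igfbp7. They were taken by gene symbol from the table of gene counts, and all 8 symbols were found among the 55487 genes counted. Messenger RNA was sequenced from mouse embryonic fibroblasts (MEFs), primary cells taken from embryos that stop dividing and become senescent after repeated passages. Wild-type MEFs at passage 2, by the sample labels, were grown at 37°C in DMEM with 10% FBS for 24 h, either with PEDF (100 ng/mL, purified from mammalian cells) or without it, and no carrier protein or vehicle is named for the control cells. PEDF, pigment epithelium-derived factor, is a secreted protein that the study examined as a factor from muscle that restrains senescence. There were 2 control libraries and 2 PEDF libraries. Each of 2 experiments used MEFs from its own embryos and gave 1 control and 1 PEDF library. Control and PEDF cells of 1 experiment are therefore taken here to be the same MEF preparation, which is not stated outright.

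IGF1 is a secreted growth factor that binds the receptor tyrosine kinase encoded by Igf1r and signals through insulin receptor substrate proteins, PI3K and AKT to growth and survival. The IGF-binding proteins hold IGF outside the cell and regulate how much of it reaches the receptor, and some of them also act on cells without IGF. Fibroblasts secrete several of these proteins, and some are known as factors released by senescent cells. IGFBP7 binds IGF with lower affinity than the other members of the family.

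The libraries held 14722848 to 18144640 counts. All 8 fibroblast markers checked, among them Col1a1 and Vim, were above 10 TPM in every library. None of the listed markers of macrophages, endothelium, epithelium, skeletal muscle, cartilage and neural crest was at 0 in all 4 libraries. Their part in the results was not tested, and in bulk RNA a change in the number of cells of a type and a change in RNA per cell cannot be told apart.

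Igfbp2 and Igfbp5 lie side by side on chromosome 1 in GRCm38, the genome build of the files. Igfbp2 (ENSMUSG00000039323) runs on the plus strand from 72824503 to 72852474, and Igfbp5 (ENSMUSG00000026185) runs toward it on the minus strand from 72857932 to 72874884. Their 3′ ends are 5457 bp apart, with 0 genes between them. Igfbp3 (ENSMUSG00000020427) spans 7206086 to 7213923 of chromosome 11 (minus strand), next to Igfbp1, with 3539 bp between them. Igfbp4 (ENSMUSG00000017493) is also on chromosome 11, from 99041244 to 99054392 on the plus strand. Igf1 (ENSMUSG00000020053) lies on chromosome 10 from 87858265 to 87937042, Igf1r (ENSMUSG00000005533) on chromosome 7 from 67952827 to 68233668, and Igfbp6 (ENSMUSG00000023046) on chromosome 15 from 102144362 to 102149511, all on the plus strand. Igfbp7 (ENSMUSG00000036256) spans 77349240 to 77408041 of chromosome 5 (minus strand). Its span overlaps those of Polr2b and Gm34648 on the opposite strand, and its count could be affected where exons overlap if the authors' counting ignored strand.

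The 250 bases before the transcription start are shown for Igfbp2, Igfbp3 and Igfbp4, the binding protein genes that were higher with PEDF in both experiments beyond counting error, and for Igfbp5, the neighbor of Igfbp2 whose level differed little. They are the RefSeq starts on GRCm38.p6, where all 8 genes had an entry, and they read 5′ to 3′ on the strand of the gene. Capitals mark TATANA (TATA box) and GGGCGG (GC box), each searched on both strands.
Igfbp2 (chr1:72824230-72824479, plus strand): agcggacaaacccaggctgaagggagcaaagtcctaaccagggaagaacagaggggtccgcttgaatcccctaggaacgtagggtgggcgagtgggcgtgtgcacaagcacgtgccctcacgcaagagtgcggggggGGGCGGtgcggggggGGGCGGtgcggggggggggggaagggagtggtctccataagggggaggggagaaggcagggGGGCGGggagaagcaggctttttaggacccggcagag
Igfbp3 (chr11:7213924-7214173, minus strand): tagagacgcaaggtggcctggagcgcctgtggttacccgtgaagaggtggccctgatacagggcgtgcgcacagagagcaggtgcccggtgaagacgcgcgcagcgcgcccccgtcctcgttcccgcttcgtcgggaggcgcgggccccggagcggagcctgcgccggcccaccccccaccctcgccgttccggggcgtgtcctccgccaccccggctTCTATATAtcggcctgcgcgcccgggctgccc
Igfbp4 (chr11:99040994-99041243, plus strand): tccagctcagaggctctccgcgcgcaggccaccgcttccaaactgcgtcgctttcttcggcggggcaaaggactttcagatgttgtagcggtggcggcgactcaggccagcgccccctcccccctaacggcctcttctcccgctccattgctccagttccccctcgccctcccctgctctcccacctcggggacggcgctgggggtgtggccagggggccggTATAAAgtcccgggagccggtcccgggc
Igfbp5 (chr1:72874866-72875115, minus strand): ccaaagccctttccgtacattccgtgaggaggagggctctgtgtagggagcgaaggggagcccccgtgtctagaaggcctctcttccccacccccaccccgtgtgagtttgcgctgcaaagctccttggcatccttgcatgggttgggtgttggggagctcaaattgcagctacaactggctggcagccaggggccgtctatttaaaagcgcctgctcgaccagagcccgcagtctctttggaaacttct

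The 4 windows differed in the motifs they held. Igfbp2 had 3 GC boxes and no TATANA, and it also held CACGTG (E-box), which is printed in lower case. Igfbp3 had overlapping matches of TATANA and no GC box. Igfbp4 had 1 TATANA, which begins 28 bases before the start, and no GC box. Igfbp5 had neither TATANA nor GGGCGG. It holds tatttaaaa, which TATANA does not match, so the search does not show that a TATA box is absent there. Of 32851 RefSeq windows of this length, 22.6% held TATANA, 32.7% held GGGCGG and 6.02% held CACGTG. Among the 8 genes TATANA was found in 3 (Igfbp3, Igfbp4 and Igfbp6), the GC box in 3 and the E-box in 1. In Igfbp6 its matches begin 148 and 146 bases before the start, much farther than in Igfbp4. The forkhead motif GTAAACA (3.17% of all windows) and the AP-1 motif TGAGTCA (4.46%), also searched on both strands, were found in 0 of the 8. A match is a string of letters and was not tested as a binding site.

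Levels were first compared between genes. TPM is a transcript abundance that takes gene length into account, so it can be compared between genes. Igfbp7 had the highest level of the 8 genes, 763 ± 11.4 TPM (SD, n = 4 libraries), and ranked 126 among all genes by mean TPM. Igfbp5 had 347 ± 20.9 TPM, Igfbp4 had 291 ± 38.4 TPM, and Igfbp3 had 256 ± 27.8 TPM (SD, n = 4). Igfbp2 followed with 220 ± 34.8 TPM and Igfbp6 with 106 ± 3.71 TPM (SD, n = 4). The receptor gene Igf1r had 26.1 ± 3.61 TPM, and Igf1 was the lowest with 14.9 ± 1.80 TPM (SD, n = 4).

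The ranges of Igfbp5 and Igfbp4 overlapped, and Igfbp5 was above Igfbp4 in 3 of 4 libraries. PEDF-treated MEFs of experiment 1 were the exception, with 335 TPM of Igfbp4 and 327 TPM of Igfbp5. The ranges of Igfbp4 and Igfbp3, and those of Igfbp3 and Igfbp2, also overlapped, although each library held them in this order. The other neighbors in the order did not overlap. All 6 binding protein genes were thus above Igf1 and Igf1r in every library.

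**Figure D1:**
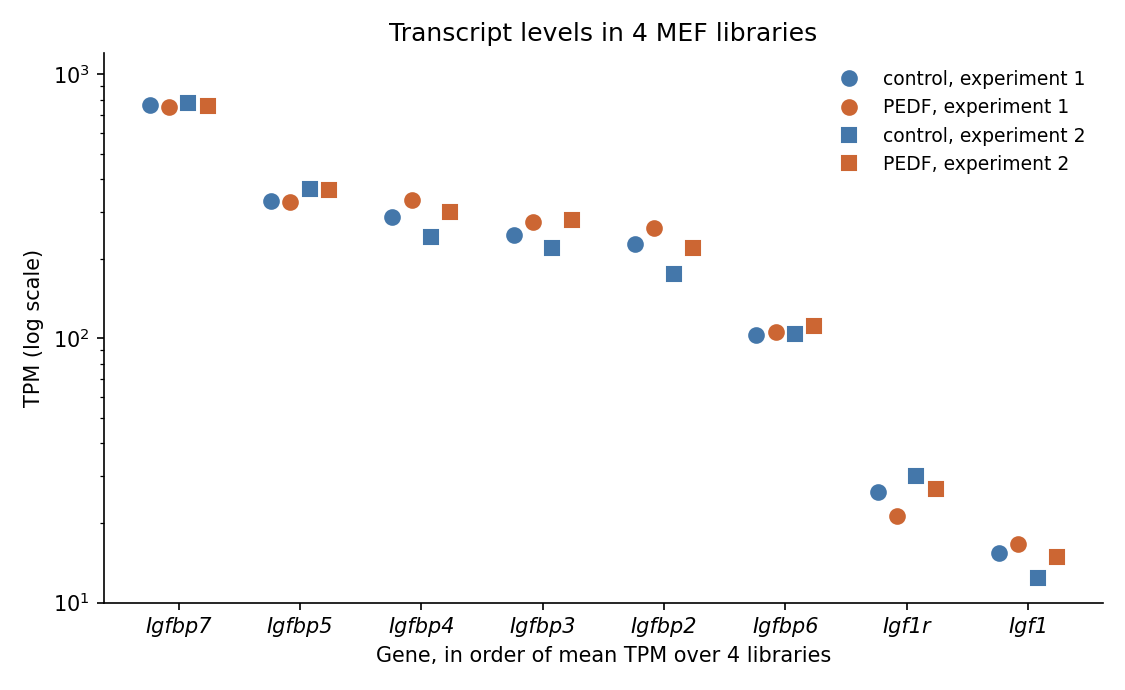
Level of each gene in TPM (log scale) in the 4 libraries, with genes ordered by mean TPM over the libraries; each point is 1 library, blue for control and orange for PEDF, circles for experiment 1 and squares for experiment 2. Igfbp7 is highest at 752 to 779 TPM and Igf1 lowest at 12.4 to 16.7 TPM.

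Whether PEDF-treated MEFs differed from control MEFs was then examined gene by gene. CPM is the count of a gene relative to its library total, scaled between libraries with TMM factors, and serves to compare 1 gene between libraries. Igfbp2, Igfbp3 and Igfbp4 were higher with PEDF within each experiment, by 14.4% to 28.2%, and Igf1r was lower, by 16.4% in experiment 1 and 9.75% in experiment 2. Igf1 was 11.4% and 20.5% higher. Igfbp5, Igfbp6 and Igfbp7 had intervals that included no difference. In edgeR's quasi-likelihood test over 19384 genes without a term for the experiment, which was the main test, 0 of the 8 genes had an adjusted p under 0.05, compared with 0.00516% of all genes. Without adjustment, p was under 0.05 for 3 of the 8 (Igfbp3, Igfbp4 and Igf1r), compared with 6.88% of all genes. When edgeR took the experiment as a block, PEDF and control were compared inside an experiment. Then 3 genes rose (Igfbp2, Igfbp3 and Igfbp4, compared with 1.67% of all genes) and 1 gene fell (Igf1r, compared with 2.07% of all genes). These genes are well expressed, and among the 1494 genes with a mean log2 CPM above 7, which include 6 of the 8, the block called 6.96% higher and 11.3% lower. The median log2 fold change of the 8 genes was 0.15 in both fits, compared with 0.00 over all genes. With 4 libraries, the block leaves little information on the spread of a single gene. Its standard errors, intervals and p-values in edgeR thus rest almost wholly on variation pooled over genes.

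Igfbp2 encodes a binding protein that is abundant in fetal tissues. Igfbp2 measured 149 and 112 CPM in control MEFs of experiments 1 and 2, and 175 and 141 CPM in PEDF-treated MEFs. The groups overlapped, because the control level of experiment 1 was above the PEDF level of experiment 2, while PEDF was above control within each experiment. The log2 fold change was 0.28 (standard error 0.17, adjusted p = 0.790 in edgeR) without the block and 0.28 (standard error 0.05, adjusted p = 1.08e-05 in edgeR) with the block, or 21.6% higher.

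Igfbp3 encodes the main IGF carrier of the circulation. Its levels were 274 and 238 CPM in control MEFs of experiments 1 and 2, and 314 and 306 CPM in PEDF-treated MEFs. The groups did not overlap, with PEDF above control, which was also the case for 18.9% of all genes. The means were 256 ± 25.3 CPM in control and 309.6 ± 5.55 CPM in PEDF-treated MEFs (SD, n = 2). Igfbp3 had the smallest p of the 8 genes without the block, with a log2 fold change of 0.27 (standard error 0.08, unadjusted p = 0.00248, adjusted p = 0.626 in edgeR). With the block it was 0.28 (standard error 0.05, adjusted p = 7.26e-07 in edgeR). The percentage difference was 14.4% in experiment 1 and 28.2% in experiment 2, and their counting intervals on the log2 scale, 0.13 to 0.25 and 0.30 to 0.42, did not overlap. The edgeR standard error with the block takes little account of this spread. In limma with the block on log2(TPM + 1), the adjusted p of Igfbp3 was 0.448.

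Igfbp4 encodes a binding protein that mostly inhibits IGF action until it is cleaved by the protease encoded by Pappa. Control MEFs of experiments 1 and 2 had 449 and 370 CPM of Igfbp4, and PEDF-treated MEFs had 540 and 462 CPM. The PEDF libraries were both above the control libraries, although the lower PEDF library exceeded the higher control library only slightly. The log2 fold change was 0.29 without the block (standard error 0.10, adjusted p = 0.696 in edgeR) and 0.29 with it (standard error 0.04, adjusted p = 1.33e-08 in edgeR). The difference was similar in the experiments, 20.1% and 25.03%.

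Igf1r was the 1 gene of the 8 called lower with PEDF by the block. It had 156 and 174 CPM in control MEFs of experiments 1 and 2, and 130 and 157 CPM in PEDF-treated MEFs. The groups overlapped, as the PEDF level of experiment 2 was above the control level of experiment 1. The log2 fold change was -0.20 in both fits, with a standard error of 0.09 and an adjusted p of 0.713 without the block, and 0.05 and 0.00513 with the block (edgeR). Igf1r is also the longest of the 8 genes, with 16791 bp of exons, and fold changes in these libraries moved with length. With the block, the median log2 fold change was 0.09 over genes of 1000 to 2000 bp and -0.15 over the 260 genes of 16000 bp or more (mean log2 CPM above 3). When the trend with length was removed from each library, the log2 fold change of Igf1r was -0.08 (adjusted p = 0.575 in edgeR with the block).

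**Figure D2:**
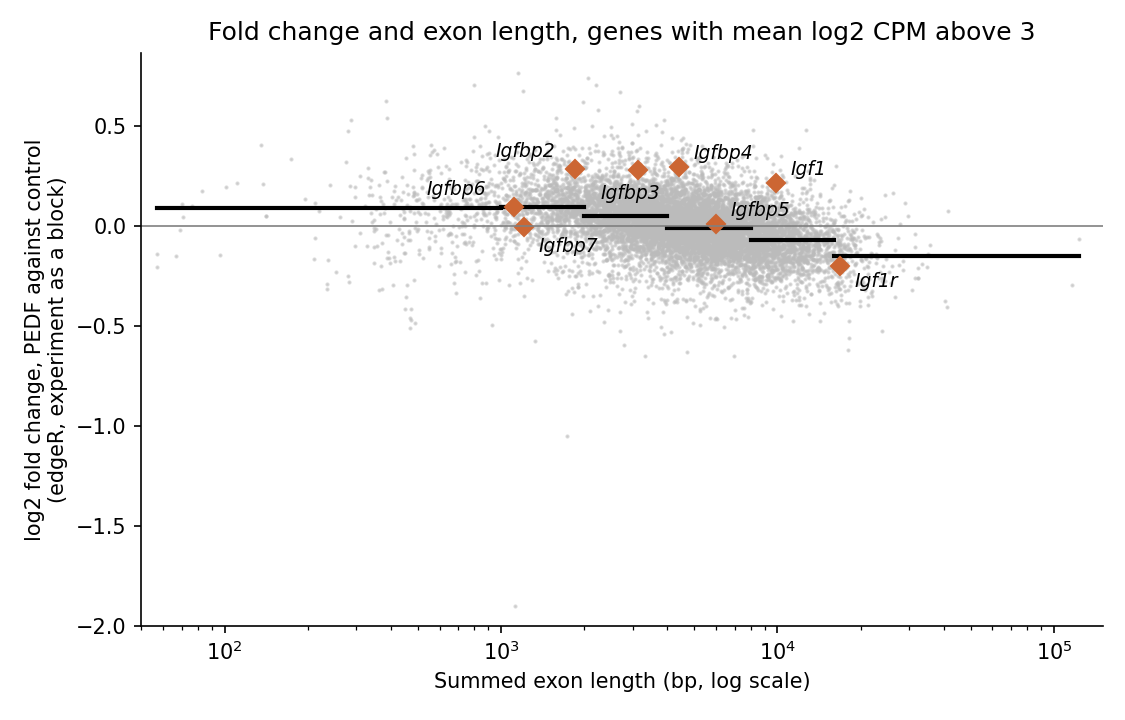
Log2 fold change of PEDF against control MEFs in edgeR with a block for the experiment, plotted against summed exon length (bp, log scale); each grey point is 1 gene with a mean log2 CPM above 3, black lines are medians of length classes, and orange diamonds are the 8 genes. Class medians run from 0.09 at 1000 to 2000 bp to -0.15 at 16000 bp or more, near Igf1r, while Igf1, Igfbp2, Igfbp3 and Igfbp4 lie above the medians of their classes.

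Igf1 had 54.2 and 42.5 CPM in control MEFs of experiments 1 and 2, and 60.4 and 51.2 CPM in PEDF-treated MEFs. The group ranges overlapped, and PEDF was above control within each experiment. The log2 fold change was 0.21 without the block (standard error 0.12, adjusted p = 0.756 in edgeR) and 0.21 with it (standard error 0.07, adjusted p = 0.0672 in edgeR), which missed the threshold. Igf1 has 9904 bp of exons, and with the length trend removed it rose by a log2 fold change of 0.28 (adjusted p = 0.00684 in edgeR with the block). The correction kept Igfbp2 (0.20, adjusted p = 0.00592), Igfbp3 (0.23, adjusted p = 5.44e-05) and Igfbp4 (0.29, adjusted p = 1.46e-08) past the threshold in edgeR, so that 4 genes were then higher and 0 lower, compared with 0.94% and 1.28% of all genes. With GC content removed as well, these 4 genes were again higher, compared with 0.924% of all genes.

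Igfbp5 encodes the binding protein most often tied to extracellular matrix and had 706 and 761 CPM in control MEFs and 717 and 759 CPM in PEDF-treated MEFs of experiments 1 and 2. Its 95% interval for the log2 fold change with the block in edgeR was -0.08 to 0.09. Igfbp6, whose protein prefers IGF2, had 40.8 and 39.7 CPM in control MEFs and 42.8 and 43.0 CPM in PEDF-treated MEFs. These groups did not overlap, but the counting intervals of both experiments and the interval with the block (-0.06 to 0.25) included 0. Igfbp7 had 328 and 325 CPM in control MEFs and 332 and 318 CPM in PEDF-treated MEFs. The PEDF libraries lay on either side of the control libraries, and the interval with the block was -0.10 to 0.08. Its TPM values were 764 and 779 in control and 752 and 758 in PEDF-treated MEFs. With the block and the length trend removed, the log2 fold change of Igfbp7 was -0.10 (95% interval -0.18 to -0.01, adjusted p = 0.345 in edgeR). That of Igfbp6 was then 0.00 (-0.15 to 0.15). The 95% intervals with the block of Igfbp2 (0.18 to 0.38), Igfbp3 (0.19 to 0.37) and Igfbp4 (0.21 to 0.38) lay wholly above those of Igfbp5 and Igfbp7. The intervals of the neighbors Igfbp2 and Igfbp5 overlapped without the block (-0.16 to 0.71 and -0.14 to 0.16) and with the block and the length trend removed (0.10 to 0.30 and -0.05 to 0.11), and were separate with the block when length and GC trends were removed (0.14 to 0.33 and -0.04 to 0.11).

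Within an experiment there is 1 library per treatment, so exact binomial 95% intervals of the ratio cover counting error only. PCR copies of a molecule are counted as separate reads, which these intervals do not allow for. By these intervals, Igf1, Igfbp2, Igfbp3 and Igfbp4 were higher in both experiments (4 of 8, compared with 3.44% of all genes, and 16% of those with a mean log2 CPM above 7), and Igf1r was lower in both (1 of 8, compared with 3.88% of all genes, and 19.5%). The remaining 3 genes had an interval that included 0. For Igf1, with 758 to 939 counts per library, the interval of the log2 ratio was 0.02 to 0.29 in experiment 1 and 0.13 to 0.41 in experiment 2. For Igf1r it was -0.35 to -0.17 and -0.22 to -0.07.

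**Figure D3:**
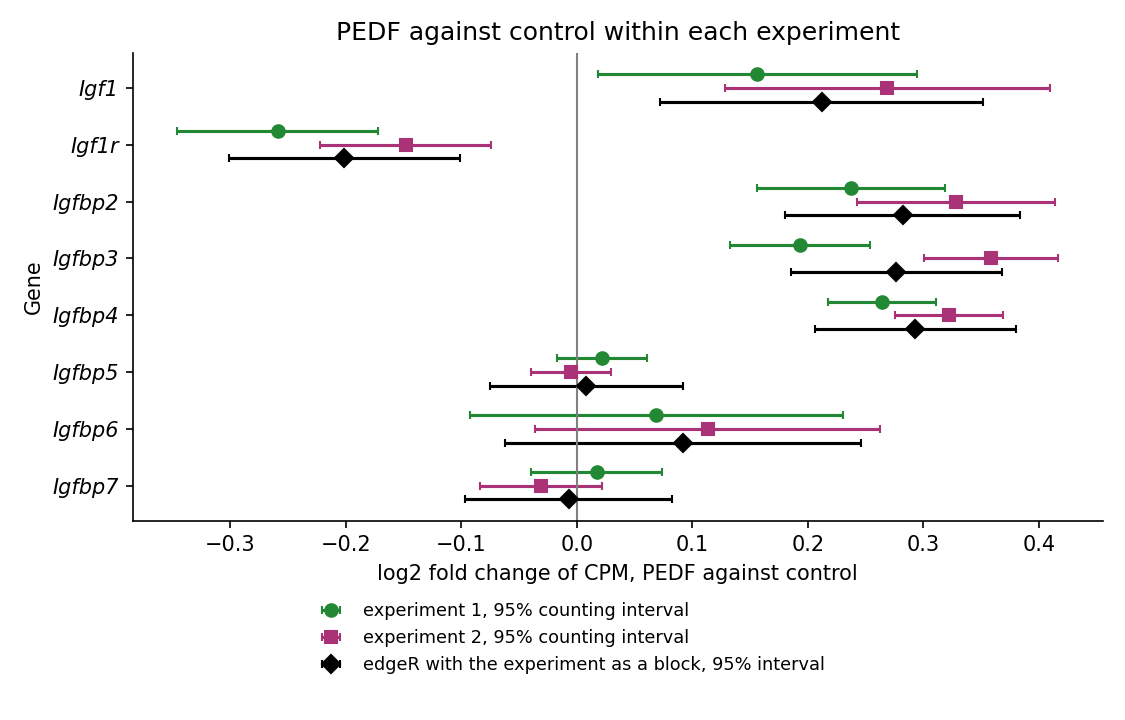
Log2 fold change of CPM, PEDF against control MEFs, for each gene; green circles and purple squares are experiments 1 and 2 with 95% counting intervals, and black diamonds are the edgeR fit with a block for the experiment, with 95% intervals. Igf1, Igfbp2, Igfbp3 and Igfbp4 lie above 0 and Igf1r lies below 0 in both experiments.

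The calls depended on the test. DESeq2 with the block called 3 of the 8 higher (1.76% of the genes it adjusted) and gave an adjusted p of 0.035 to Igfbp2, 0.00756 to Igfbp3, 0.000213 to Igfbp4 and 0.199 to Igf1r, while Igf1 and Igfbp6 were given none. Unlike these fits, limma with the block on log2(TPM + 1) called none of the 8 and none of all genes. Without the block, leaving out control replicate 1 raised the number called from 0 to 3, all higher, compared with 0.357% of all genes tested in that fit (205 genes were called in either direction, beside 1 with all libraries). These 3 had log2 fold changes in edgeR of 0.49 for Igfbp2, 0.38 for Igfbp3 and 0.44 for Igfbp4. Leaving out control replicate 2 instead called none of the 8 and gave 0.08 for Igfbp2, 0.17 for Igfbp3, 0.15 for Igfbp4 and 0.04 for Igf1. As each of the 4 libraries was left out, log2 fold changes ranged from 0.08 to 0.49 for Igfbp2, 0.17 to 0.38 for Igfbp3, 0.15 to 0.44 for Igfbp4 and 0.04 to 0.39 for Igf1. That of Igf1r ranged from -0.34 without PEDF replicate 2 to -0.07 without PEDF replicate 1.

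The difference between the experiments, each with its own embryos, was set beside that between treatments. Igfbp2, Igfbp4 and Igf1 were lower in experiment 2 than in experiment 1, and Igf1r was higher. In the same edgeR model with both terms, 3 of the 8 genes were lower and 1 was higher at an adjusted p under 0.05, compared with 2.19% and 2.3% of all genes (7.43% and 12.1% of those with a mean log2 CPM above 7). Igfbp2 had 162 CPM in experiment 1 and 126 CPM in experiment 2 as means over treatments, a log2 difference of -0.36 (adjusted p = 1.46e-09 in edgeR), beside 0.28 for PEDF against control. Igfbp4 had 494 and 416 CPM (-0.25, adjusted p = 2.35e-06), beside 0.29 for PEDF. Igf1 had 57.3 and 46.8 CPM (-0.29, adjusted p = 0.00262 in edgeR), beside 0.21 for PEDF. Igf1r had 143 and 166 CPM (0.21, adjusted p = 0.0021 in edgeR), beside -0.20 for PEDF. The experiments thus differed by amounts of about the size of the treatment difference in these 4 genes. Embryos, culture and library handling are joined in this term and cannot be told apart. Igfbp3 (-0.12, adjusted p = 0.148 in edgeR), Igfbp5 (0.10), Igfbp6 (-0.01) and Igfbp7 (-0.04) did not pass the threshold. Both comparisons use the same 4 libraries. DESeq2 with the treatment term called 2 of the 8 genes lower in experiment 2, Igfbp2 and Igfbp4, compared with 2.29% of the 1310 genes it adjusted. Without the treatment term edgeR called 0, compared with 0.0567% of all genes. In that fit p without adjustment was under 0.05 for 3 (Igf1, Igf1r and Igfbp2). The share of all genes at this limit was not counted, so this number cannot be weighed.

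**Figure D4:**
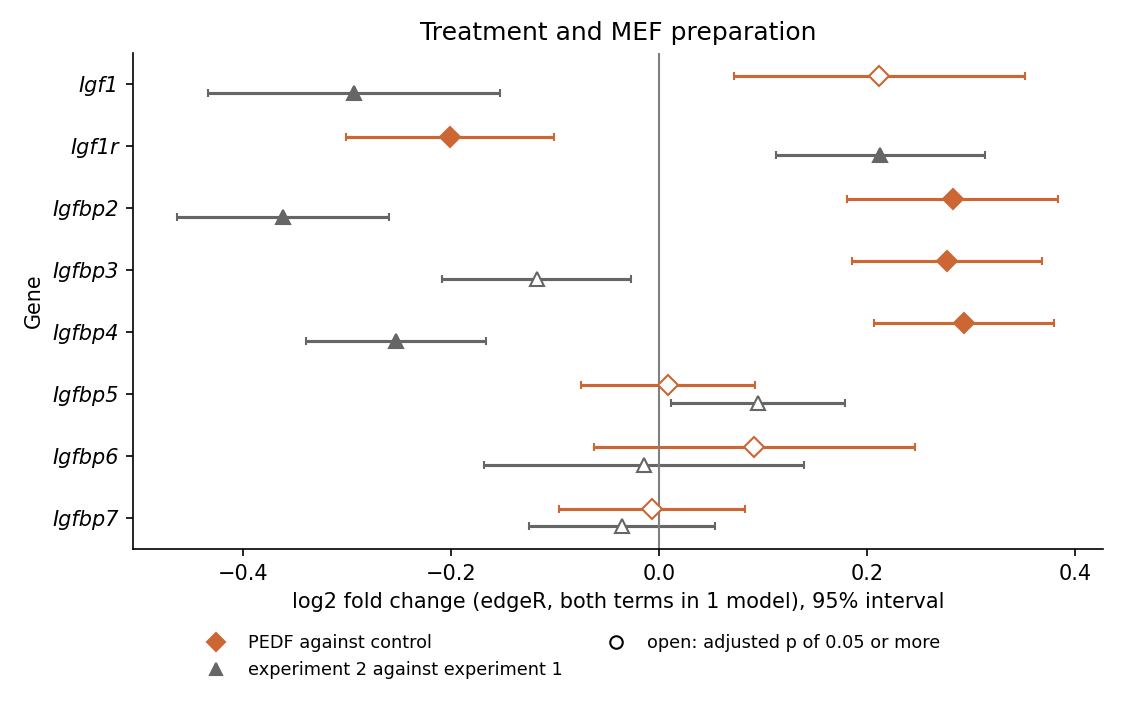
Log2 fold changes from 1 edgeR model with terms for treatment and experiment, with 95% intervals; orange diamonds are PEDF against control and grey triangles are experiment 2 against experiment 1, and open symbols have an adjusted p of 0.05 or more. For Igfbp2 the treatment difference is 0.28 and the difference between experiments is -0.36.

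Markers of other cell types were set beside these results. Of the 6 macrophage markers (Ptprc, Csf1r, Adgre1, Itgam, Cd68 and Lyz2), 3 were above 10 TPM in every library and 1 was under 1 TPM in all. Their summed level was 182 and 102 TPM in control MEFs of experiments 1 and 2 and 178 and 148 TPM in PEDF-treated MEFs. Most of this sum was Lyz2, which encodes lysozyme and had 129 and 57.8 TPM in control and 130.4 and 101 TPM in PEDF-treated MEFs. With the block its log2 fold change was 0.39 (adjusted p = 2.01e-05 in edgeR). The other 5 did not pass the threshold with the block, with log2 fold changes of 0.15 for Cd68, -0.02 for Adgre1, -0.08 for Ptprc, -0.14 for Csf1r and -0.47 for Itgam. Control MEFs of experiment 2 were lowest for Lyz2 and also lowest for Igf1, Igfbp2, Igfbp3 and Igfbp4. In experiment 1, Lyz2 had 129 TPM in control and 130.4 TPM in PEDF-treated MEFs. In the same libraries Igfbp2 had 227 and 260 TPM, Igfbp3 had 247 and 275 TPM, and Igfbp4 had 287 and 335 TPM. C1qa, a complement gene of macrophages that is not on the list and is named after its values were seen, was 19.8% higher in experiment 1 (15.5 and 18.6 CPM) and 25.5% higher in experiment 2 (12.2 and 15.3 CPM), with an adjusted p of 0.205 in edgeR with the block. The 6 cartilage markers summed to 1441 and 1625 TPM in control and 1246 and 1377 TPM in PEDF-treated MEFs. Of these, Col2a1 (-0.20), which makes up most of the sum, and Acan (-0.41) fell with the block, and the other 4 (Sox9, Matn1, Matn3 and Comp, -0.03 to 0.13) did not pass the threshold. Of the skeletal muscle markers, which summed to 222 and 266 TPM in control and 240.5 and 284 TPM in PEDF-treated MEFs, 1 passed, Des (0.19, adjusted p = 0.0309 in edgeR with the block). Among the 8 fibroblast markers, Col1a1 (-0.24), Col1a2 (-0.12) and Pdgfrb (-0.22) fell and Dcn (0.35) rose with the block. No endothelial, epithelial or neural crest marker passed the threshold in this fit. The part of these cell types in the results was not tested.

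Transcripts of the 6 binding protein genes were summed in TPM. The sum was 1958 and 1887 TPM in control MEFs of experiments 1 and 2 and 2054 and 2034 TPM in PEDF-treated MEFs. The PEDF libraries were both above the control libraries. The means were 1923 ± 50.03 TPM in control and 2044 ± 14.7 TPM in PEDF-treated MEFs (SD, n = 2), a difference of 6.31%, with p = 0.333 in an exact two-sided permutation test, the smallest p that 2 libraries against 2 allow. Igfbp7 made up 39.0% and 41.3% of the sum in control and 36.6% and 37.3% in PEDF-treated MEFs, while Igfbp4 made up 14.6% and 12.8% in control and 16.3% and 14.8% in PEDF-treated MEFs. Without Igfbp7 the sum was 11.9% higher with PEDF.

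**Figure D5:**
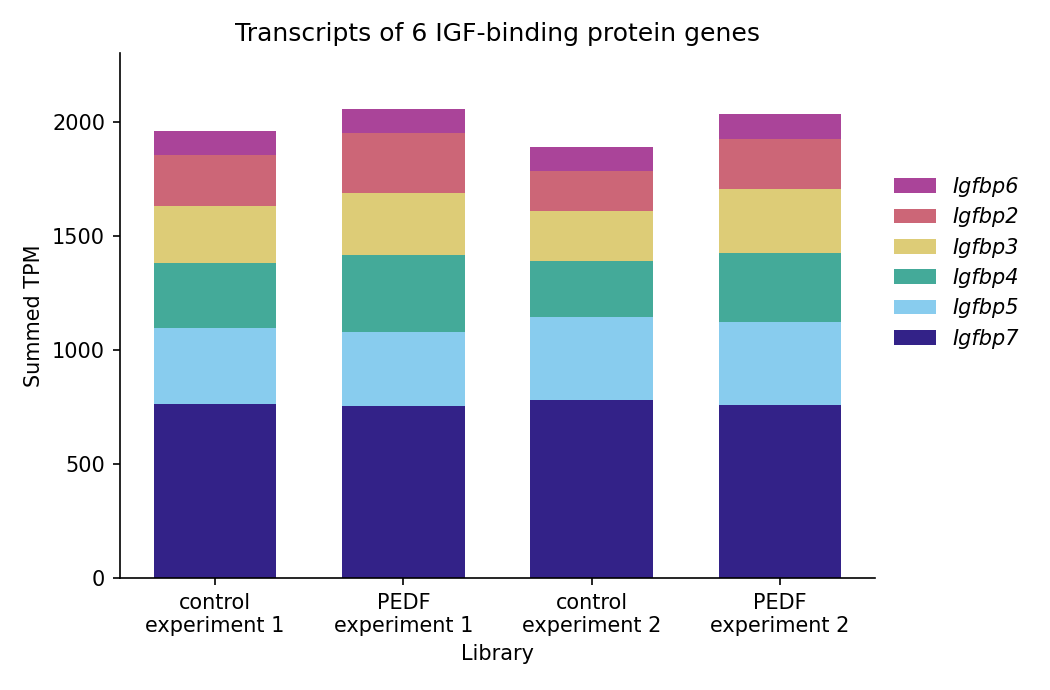
Summed TPM of the 6 IGF-binding protein genes in each library, with each gene as a stacked segment and bars starting at 0. The PEDF bars reach 2054 and 2034 TPM and the control bars 1958 and 1887 TPM, and Igfbp7 is the largest segment in each.

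Set against the binding proteins, Igf1 had 0.787 and 0.658 TPM per 100 TPM of binding protein transcripts in control MEFs of experiments 1 and 2, and 0.814 and 0.731 in PEDF-treated MEFs. The groups overlapped (exact permutation p = 0.667, without the pairing by experiment), and PEDF was above control within each experiment. Igf2, the other ligand, was more abundant than Igf1, with 119 and 112 TPM in control MEFs and 110 and 98.6 TPM in PEDF-treated MEFs. The ratio of Igf2 to Igf1 in TPM was 8.34 ± 0.910 in control and 6.60 ± 0.0422 in PEDF-treated MEFs (SD, n = 2, exact permutation p = 0.333, the smallest possible).

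A list of 49 other genes of the pathway was read from the same fits, and 48 had enough counts to be tested. Without the block, 0 had an adjusted p under 0.05 in edgeR, while p without adjustment was under 0.05 for 6, all of them lower with PEDF (3.66% of all genes were lower at this limit). With the block, 0 rose and 4 fell (4 of 48, compared with 2.07% of all genes lower). Igf2r, whose product takes up IGF2 for degradation, had 15051 and 21026 counts in control and 13358 and 17484 counts in PEDF libraries, a log2 fold change of -0.26 (adjusted p = 2.41e-07 in edgeR with the block). It stayed past the threshold with the length trend removed (-0.19, adjusted p = 0.000334 in edgeR). Pappa, which encodes a protease of IGFBP4, had 779 and 1050 counts in control and 721 and 855 counts in PEDF libraries, a log2 fold change of -0.24 (adjusted p = 0.025 in edgeR with the block, and 0.283 with the length trend removed). Igfbp4 and the gene of this protease thus moved in opposite directions with the block, and only Igfbp4 was past the threshold after the length correction, a difference between them that was not tested.

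Irs2 encodes an adaptor that passes the signal of the receptor to PI3K, and it fell with a log2 fold change of -0.29 (adjusted p = 0.0129 in edgeR with the block). It had 656 and 804 counts in control and 589 and 633 counts in PEDF libraries. The protease gene Adamts1 fell by 0.18 on the log2 scale (adjusted p = 0.0141 in edgeR with the block). Irs1 (-0.17, adjusted p = 0.0752), Rptor (-0.20, adjusted p = 0.0508), Igf2 (-0.12, adjusted p = 0.152) and the insulin receptor gene Insr (-0.17, adjusted p = 0.256) did not pass the threshold in this fit. With the length trend removed, 3 of the 48 fell (Igf2r, Adamts1 and Irs2), compared with 1.28% of all genes. The call of Irs2 ended when GC content was removed as well (-0.23, adjusted p = 0.0911 in edgeR). Igfbp1, the neighbor of Igfbp3, had 9 and 1 counts in control and 7 and 7 counts in PEDF libraries. Igfals, which encodes the third protein of the circulating complex of IGF and IGFBP3, had 0 and 3 counts in control and 5 and 1 counts in PEDF libraries, too few to be tested. The count of 0 in control MEFs of experiment 1 allows up to 3 counts.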

How the data were processed

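RNA of 4 MEF libraries (2 control, 2 PEDF) was analyzed. The authors selected polyadenylated RNA and sequenced directional libraries from both ends. By the paper's methods and the submitters' processing notes, the authors used FastQC 0.11.7, Trimmomatic 0.38, HISAT2 2.1.0, SAMtools 1.9 and featureCounts 1.6.3, and they deposited raw counts of uniquely mapped reads per gene on mm10. The deposited TPM values sum to 1000000 in each library, and their conversion, like the annotation and the strand setting, is not given in the sources used here. The paper gives the cells as passage 3 and the labels as passage 2. Exon lengths were those of GENCODE release M21.

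The deposited counts were tested with edgeR 4.0.16 under R 4.3.3 (TMM factors, quasi-likelihood test with robust dispersions) in the 19384 genes with at least 10 counts over the 4 libraries, with Benjamini-Hochberg adjustment over all of these. The 2 libraries of a treatment are separate experiments. The labels give each experiment its own embryos, which pairs the libraries, and the log2 difference between experiments was correlated between the control and the PEDF libraries (r = 0.423 over 10722 genes, whose mean log2 CPM was above 3; genes are not independent of each other). The experiment was therefore also fitted as a block. Alternatives were RLE factors, other filters, DESeq2 1.42.0, limma 3.58.1 on log2(TPM + 1), and each library left out. The length correction modelled each library's log2 ratio to the average library with natural splines of 5 degrees of freedom. Adding GC content to it was chosen after seeing the data.

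All 8 genes are named in each comparison. Of the pathway list, Igf2, Igf2r, Insr, Igfbp1, Igfals, Irs1, Irs2 and Pappa are always named, as is any gene with an unadjusted p under 0.05 without the block or an adjusted p under 0.05 with it. The genes and lists were chosen with earlier results of these data known. The tests were checked on simulated data with planted changes larger than those of the 8 genes. The simulated spread was taken from the block fit, so this check cannot show whether small changes called with the block hold.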

Additional observations from a re-analysis of the deposited data

How the results depend on the processing

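Without the block, edgeR called 1 of all genes and 0 of the 8. These numbers were 106 and 2 (Igfbp3 and Igfbp4) without a filter on low counts, 0 and 0 with filterByExpr, 3 and 0 in DESeq2, and 0 and 0 in limma on log2(TPM + 1) or log2(TPM + 0.1). Leaving out 1 library gave 2 to 205 genes and 0 to 3 of the 8. With the experiment as a block, which pairs the libraries, the numbers were 726 and 4 in edgeR, 119 and 3 in DESeq2, 430 and 4 with the length correction, 403 and 4 with length and GC correction, and 0 and 0 in limma. Of the other pathway genes, 4, 1, 3, 2 and 0 were called in these fits, in the same order. DESeq2 gave no adjusted p to 41 of them, so its 1 is not comparable with the others. Between experiments, 4 of the 8 were called, 0 without the treatment term and 2 in DESeq2. With length and GC correction the log2 fold changes were 0.24 for Igf1 (adjusted p = 0.0295 in edgeR) and -0.07 for Igf1r (adjusted p = 0.674). The log2 fold change of Igfbp5 turned negative in limma (-0.0153 in each fit), and ranged from -0.0458 to 0.0622 with libraries left out, negative without control replicate 1 or PEDF replicate 2. That of Igfbp7 ranged from -0.0370 to 0.0238, positive without PEDF replicate 2. Left-out libraries gave 4.39% to 8.31% for the summed binding protein transcripts and -1.87% to 17.4% for the ratio of Igf1 to them, which turned without control replicate 2. The cause of these changes was not tested. In a left-out fit the lone library of a treatment is assumed to vary like the others, and no block could be fitted with 3 libraries. With the block, the largest standard errors were those of Igf1 (0.07) and Igfbp6 (0.08), the genes with the fewest counts, and without it that of Igfbp2 (0.17).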

Other observations

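The genes whose pattern over the 4 libraries was most like that of Igfbp2 and Igfbp4, the members with the widest range, were found by the distance between log2 CPM values centred on their mean, among the 10722 genes whose mean log2 CPM was above 3. This describes 4 libraries and carries no test. Nearest to Igfbp2 were C1qa, a complement gene of macrophages (distance 0.0499), the imprinted gene Nnat (0.0569) and Gm44732 (0.0582). Nearest to Igfbp4 were Tpgs2 (0.0144), Atp5l (0.0205), a gene of the mitochondrial ATP synthase, and Rps7-ps3 (0.0301), a ribosomal protein pseudogene whose count is uncertain because it shares reads with near-identical copies. Atp5l had 74.3 and 61.5 CPM in control MEFs of experiments 1 and 2 and 89.8 and 75.5 CPM in PEDF-treated MEFs.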
